A study of Homo sapiens with 4 samples.

Results

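In KGN cells, the response to 8Br-cAMP was compared after knockdown of YAP and TAZ (siYT) and after a control siRNA (siNC), to find the genes for which the 2 treatments did not simply add up on the log2 scale. For each gene the 8Br-cAMP difference was taken after each siRNA, and the difference of differences is the one after siYT minus the one after siNC. Of 17687 genes named by the array's annotation, 6604 lay well above background on all 4 arrays. Well above background means over the 95th percentile of the negative control probe sets of that array. Among these 6604 genes, 441 had a response that was gained, lost or reversed after knockdown, and they are the subject here. A gained response was at least 1 log2 unit (2-fold) in size after siYT and under 0.5 after siNC. A lost response was at least 1 after siNC and under 0.5 after siYT. A reversed response had opposite signs and a size of at least 0.5 on both sides. In all 3 classes the difference of differences had to be at least 1 in size. Members were thus picked by the same 4 arrays that are described, so their sizes are a description and no test is attached.

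KGN is an established human line of granulosa tumour cells, grown in DMEM/F12 with serum. The 4 groups were siYT+8Br-cAMP, siYT, siNC+8Br-cAMP and siNC, each with 1 Clariom S Human array. The siYT cells received siRNAs against YAP and against TAZ at 5 nM each, and the siNC cells received control siRNA at 10 nM. At 48 h the medium was renewed, with 0.5 mM 8Br-cAMP in the 2 treated groups, and RNA was taken after another 24 h. All the cells were therefore transfected and had the medium change. The siRNAs were a transient knockdown in 1 line, and no group had a second array, so none of the differences below could be set against a spread between replicates.

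YAP and TAZ are coactivators that lack a DNA-binding domain of their own and act mainly through TEAD transcription factors, and the Hippo kinases keep them out of the nucleus. 8Br-cAMP enters cells and activates protein kinase A, which phosphorylates CREB and related factors that bind the cAMP response element. In the ovary this second messenger carries the signal of FSH and LH to granulosa cells, in which it turns on steroid synthesis and the genes of ovulation.

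Levels below are deposited log2 values, 1 per array. The 2 targets lay near background after knockdown, so neither belongs to the 6604 genes. YAP1, the gene of YAP, was at 6.29 in siYT+8Br-cAMP and 6.80 in siYT, against 9.46 in siNC+8Br-cAMP and 9.48 in siNC. WWTR1, the gene of TAZ, was at 5.35 in siYT+8Br-cAMP and 5.45 in siYT, against 9.13 in siNC+8Br-cAMP and 7.58 in siNC. Both knockdown arrays were below the background limit for both genes. Against siNC with the same medium YAP1 was at least 5.61-fold lower with 8Br-cAMP and at least 4.57-fold lower without it, and WWTR1 at least 4.47-fold and at least 1.22-fold. The 8Br-cAMP difference after siNC was -0.02 for YAP1 and 1.55 for WWTR1.

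The arrays carry other probe sets against which the share of called genes can be set. The 8 spike-in probe sets lay between -0.41 and 0.38, and 0 of them reached a size of 1. Of 1928 positive control probe sets above background on all arrays, 9.60% reached that size, and 1678 of them held distinct values. Of 870 transcript clusters above background with no gene named here, 8.51% did. For the 6604 genes the share was 11.6%. Among the 612 negative controls 49.0% did, and genes near background were kept out. The share of called genes barely moved with the level of the gene, from 11.2% to 11.8% when the genes were split into 4 equal bins of mean level. The share among genes was thus near that among positive controls, and a single gene near the threshold cannot be told from such a control by its size. Positive controls and unnamed clusters may themselves respond to the treatments, so their shares do not measure error alone.

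Most markers that define other cell types were near background, apart from those of theca and stromal cells, of which 4 of 9 were well above background on all arrays and 2 more on some. All 7 endothelial and all 5 oocyte markers were below the background limit on every array, as were 8 of 9 immune markers (CD68, a lysosomal protein, was the exception) and 5 of 6 epithelial markers. Of 21 measured granulosa genes, 8 were well above background on all arrays and 9 on none.

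Over the 6604 genes the 8Br-cAMP differences after siYT and after siNC, which share no array, had a Pearson r of 0.568 and a Spearman rho of 0.505 across genes. Genes are not independent, and all of them come from the same 4 arrays. Both differences were at least 1 and of the same sign in 301 genes, and of opposite sign in 9. The difference of differences was higher by at least 1 in 292 genes (4.42%) and lower by at least 1 in 471 (7.13%). That balance depends on the scaling, with 380 higher and 371 lower when each array was centred on its gene median. Of all 763 called genes, 155 had a gained response (2.35% of 6604), 155 a lost one (2.35%) and 131 a reversed one (1.98%). A further 60 were amplified after knockdown (0.909%; 29 to higher, 0.439%, and 31 to lower, 0.469%). In 51 the response was dampened (0.772%; 27 to higher, 0.409%, and 24 to lower, 0.363%). These kept the same sign on both sides. No class held the other 211 (3.2%), of which 131 were higher (1.98%) and 80 lower (1.21%) with 8Br-cAMP in control cells. For comparison, the siRNA difference was at least 1 in size with 8Br-cAMP in 9.49% of genes higher and 8.93% lower, and without it in 14% higher and 10.9% lower. Just inside the threshold lay IGFBP1, a binding protein of insulin-like growth factors, at 1.0006, and BAZ2A, a chromatin remodelling subunit, at -1.0009. Just outside lay IMP4, a nucleolar protein, at 0.9992 and ASS1, the argininosuccinate synthase, at -0.9995.

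**Figure D1:**
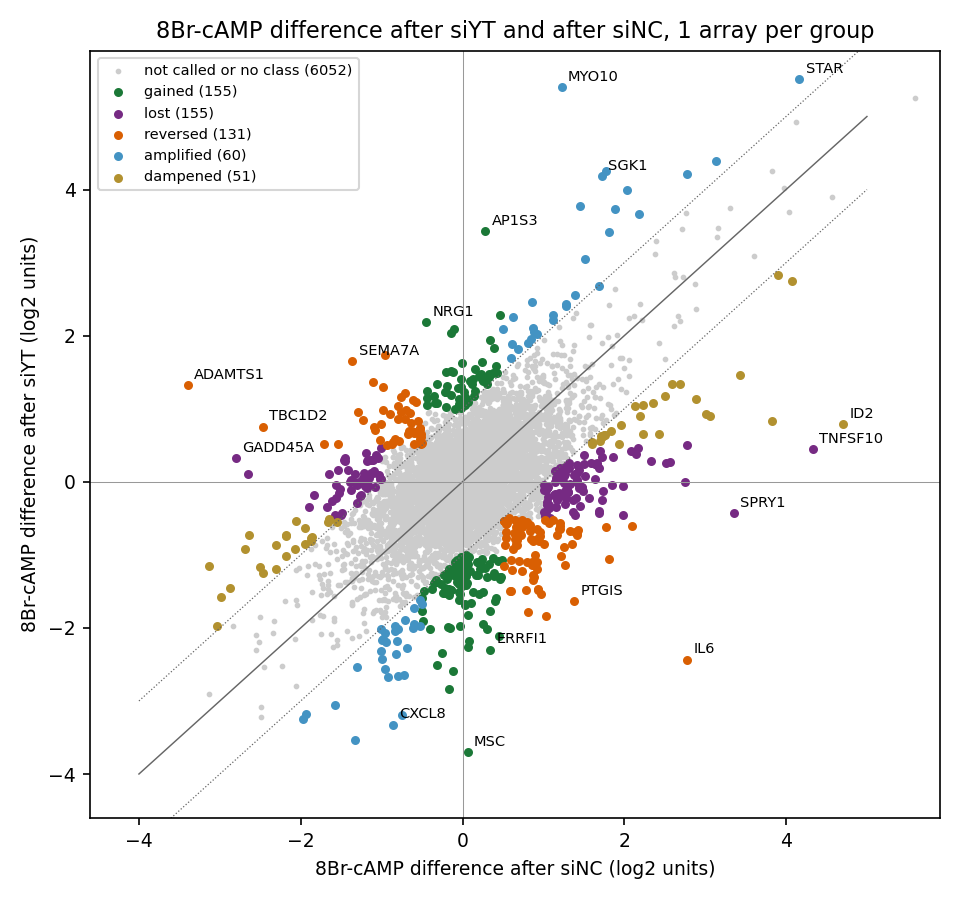
Each point is 1 of 6604 genes, with its 8Br-cAMP difference after siNC on the x axis and after siYT on the y axis, in log2 units from 1 array per group. The solid line marks equal differences and the dotted lines a difference of differences of 1. IL6 lies far to the lower right and ADAMTS1 to the upper left, the gained genes lie along the y axis, and the lost genes lie along the x axis.

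Because each class rests on single arrays, the members were sorted by whether 1 array stood apart from the other 3, meaning at least 1 log2 unit beyond all of them while they spanned at most 1. Of 155 lost responses, siNC was that array in 74 and siNC+8Br-cAMP in 10. Of 155 gained responses, siYT stood apart in 48 and siYT+8Br-cAMP in 37. Of 131 reversed responses no single array stood apart in 116. Over all 763 called genes siNC stood apart in 93, siYT in 58, siYT+8Br-cAMP in 51 and siNC+8Br-cAMP in 14. The class definitions fix part of this pattern. In a lost response siYT and siYT+8Br-cAMP are under 0.5 apart, so neither can stand apart. In a gained response the same holds for siNC and siNC+8Br-cAMP. Where siNC stood apart, untreated control cells differed from the other 3 groups, which had levels close to each other. The class of such a gene rests on that array.

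**Figure D2:**
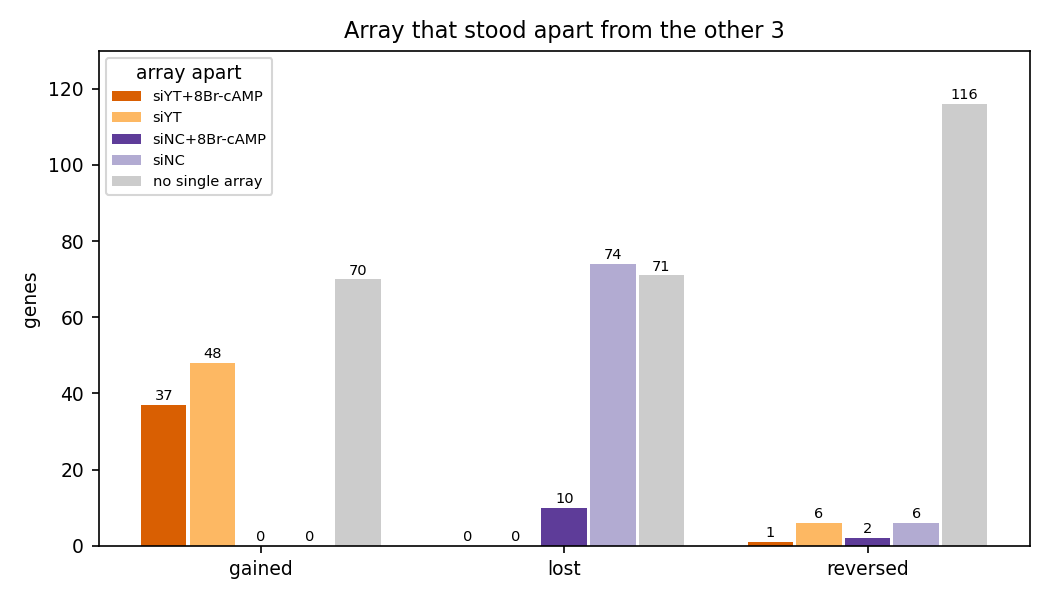
Bars count the genes of each class by the array that stood at least 1 log2 unit beyond the other 3, when those spanned at most 1. In the lost class siNC stood apart in 74 genes, in the gained class siYT in 48 and siYT+8Br-cAMP in 37, and in the reversed class mostly no single array did. By definition neither siYT array can stand apart in the lost class, and neither siNC array in the gained class.

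Among the lost responses, 100 genes were higher with 8Br-cAMP in control cells (1.51%) and 55 were lower (0.833%). Centred on the gene median these counts were 84 and 78. In most of them siYT alone already differed from siNC in the direction that siNC+8Br-cAMP did. It lay past the middle between these 2 arrays in 85 of the 100 higher and 42 of the 55 lower genes. Among the 100 higher, siYT was above siNC by at least 1 in 75, against 14% of all 6604 genes. The siNC array enters both the class and this placement, so the placement is a description.

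TNFSF10, the death ligand TRAIL, was at 12.95 in siYT+8Br-cAMP and 12.51 in siYT, against 11.96 in siNC+8Br-cAMP and 7.62 in siNC. It was 20.1-fold higher with 8Br-cAMP in control cells, and the 3 other arrays all lay at 11.96 or above. SPRY1, an inhibitor of growth factor signalling to ERK, was at 12.19 in siYT+8Br-cAMP and 12.62 in siYT, against 12.46 in siNC+8Br-cAMP and 9.10 in siNC. Again only siNC was low, and the 8Br-cAMP difference was -0.43 after siYT against 3.36 after siNC. HEXIM1, which holds back the elongation kinase P-TEFb, was at 9.76 in siYT+8Br-cAMP and 9.76 in siYT, against 10.93 in siNC+8Br-cAMP and 8.17 in siNC, with equal values in both knockdown groups. SMAD6, an inhibitor of BMP signalling, was at 10.42 in siYT+8Br-cAMP and 10.87 in siYT, against 11.69 in siNC+8Br-cAMP and 9.71 in siNC. PALMD, the membrane-associated protein palmdelphin, was at 13.35 in siYT+8Br-cAMP and 13.07 in siYT, against 12.25 in siNC+8Br-cAMP and 9.69 in siNC, so that both knockdown arrays lay above both control arrays.

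In the opposite direction, GADD45A, a stress gene that halts the cell cycle and a member of the YAP/TAZ target signature, was at 9.02 in siYT+8Br-cAMP and 8.69 in siYT, against 9.09 in siNC+8Br-cAMP and 11.89 in siNC. Untreated control cells alone were high. STPG1, a protein named for its sperm-tail repeats, was at 9.12 in siYT+8Br-cAMP and 9.01 in siYT, against 8.64 in siNC+8Br-cAMP and 11.28 in siNC, and SNX24, a sorting nexin, at 10.10 in siYT+8Br-cAMP and 9.99 in siYT, against 10.27 in siNC+8Br-cAMP and 11.92 in siNC. Both had the same shape, with siNC apart. EXOSC8, a subunit of the RNA exosome, was at 7.997 in siYT+8Br-cAMP and 7.69 in siYT, against 8.76 in siNC+8Br-cAMP and 10.22 in siNC, lowest in the 2 knockdown groups and highest in siNC. NIBAN1, a stress-induced regulator of translation, was at 12.48 in siYT+8Br-cAMP and 12.15 in siYT, against 10.94 in siNC+8Br-cAMP and 12.40 in siNC. Here siNC+8Br-cAMP was the single low array. FST, follistatin, which binds and blocks activin, was at 10.33 in siYT+8Br-cAMP and 10.51 in siYT, against 11.95 in siNC+8Br-cAMP and 13.79 in siNC, with 8Br-cAMP differences of -0.18 after siYT and -1.84 after siNC.

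Among the gained responses, 55 genes were higher with 8Br-cAMP after siYT (0.833%) and 100 were lower (1.51%). Centred on the gene median the counts were 73 and 79. Of the 100 lower genes, 44 were above siNC by at least 1 after siYT alone and 7 below it, and with 8Br-cAMP 33 were below siNC+8Br-cAMP by at least 1 and 2 above it. Of the 55 higher genes, 19 were below siNC by at least 1 after siYT alone, 1 was above it, and with 8Br-cAMP 18 were above siNC+8Br-cAMP by at least 1 and 0 below. Over all 6604 genes, siYT alone was above siNC by at least 1 in 14% and below it in 10.9%. With 8Br-cAMP these shares were 9.49% and 8.93%. The siYT arrays enter both the class and these counts, so the counts are a description.

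MSC, the transcriptional repressor musculin, was at 10.73 in siYT+8Br-cAMP and 14.43 in siYT, against 11.09 in siNC+8Br-cAMP and 11.03 in siNC. It was 10.5-fold higher in siYT than in siNC, and only siYT stood apart. PDGFRA, a receptor of platelet-derived growth factor, was at 7.22 in siYT+8Br-cAMP and 9.81 in siYT, against 7.16 in siNC+8Br-cAMP and 7.27 in siNC, and CCNG2, the growth-restraining cyclin G2, at 8.63 in siYT+8Br-cAMP and 10.74 in siYT, against 9.45 in siNC+8Br-cAMP and 8.999 in siNC. Both had siYT alone apart, as MSC did. For PDGFRA the other values lay close to their limits, 6.98 in siYT+8Br-cAMP, 6.53 in siNC+8Br-cAMP and 6.94 in siNC. Its 8Br-cAMP difference after siNC therefore rests on values near background. ERRFI1, a feedback inhibitor of the EGF receptor, was at 13.18 in siYT+8Br-cAMP and 15.48 in siYT, against 16.001 in siNC+8Br-cAMP and 15.66 in siNC. Its single low array was the doubly treated one. TRIM22, an interferon-induced antiviral ligase, was at 8.32 in siYT+8Br-cAMP and 11.15 in siYT, against 10.12 in siNC+8Br-cAMP and 10.29 in siNC, above siNC after knockdown alone and below it with both treatments.

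Of the gained responses that were higher, AP1S3, a small subunit of a clathrin adaptor complex, was at 10.96 in siYT+8Br-cAMP and 7.53 in siYT, against 9.90 in siNC+8Br-cAMP and 9.62 in siNC. It was 10.7-fold higher with 8Br-cAMP after siYT and 1.22-fold higher after siNC. Its siYT value lay close to the limit of 7.29. NRG1, neuregulin 1, a ligand of ERBB receptors, was at 12.07 in siYT+8Br-cAMP and 9.89 in siYT, against 12.66 in siNC+8Br-cAMP and 13.11 in siNC. Knockdown alone had the low value, as it did for ELL2, an elongation factor of RNA polymerase II, at 12.75 in siYT+8Br-cAMP and 10.65 in siYT, against 12.94 in siNC+8Br-cAMP and 13.04 in siNC, and for ATP1B3, a subunit of the sodium pump, at 11.72 in siYT+8Br-cAMP and 9.43 in siYT, against 11.29 in siNC+8Br-cAMP and 10.83 in siNC. PKP2, the desmosome protein plakophilin 2, was at 14.52 in siYT+8Br-cAMP and 12.49 in siYT, against 12.71 in siNC+8Br-cAMP and 12.86 in siNC. Its doubly treated array alone was high.

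Reversed responses numbered 49 to higher (0.742%) and 82 to lower (1.24%), or 66 and 70 when centred on the gene median. In 69 of the 82 genes that turned to lower, siYT lay past the middle between siNC and siNC+8Br-cAMP. In 54 of the 82 siYT exceeded siNC by at least 1, against 14% of all 6604 genes. The siYT and siNC arrays enter both the class and this placement, so the placement is a description. IL6, the inflammatory cytokine, had the lowest difference of differences of all 6604 genes. It was at 9.75 in siYT+8Br-cAMP and 12.18 in siYT, against 17.45 in siNC+8Br-cAMP and 14.67 in siNC. 8Br-cAMP was accompanied by a 6.86-fold higher level in control cells and a 5.41-fold lower level after knockdown, a difference of differences of -5.21. ADAMTS1, a protease that cleaves versican in the matrix around the ovulating oocyte, had the highest, at 4.72. It was at 9.26 in siYT+8Br-cAMP and 7.94 in siYT, against 10.03 in siNC+8Br-cAMP and 13.43 in siNC. With 8Br-cAMP it was 2.50-fold higher after siYT and 10.5-fold lower after siNC, and without 8Br-cAMP siYT differed from siNC by -5.49.

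PTGIS, the prostacyclin synthase, was at 11.23 in siYT+8Br-cAMP and 12.86 in siYT, against 13.08 in siNC+8Br-cAMP and 11.69 in siNC. NDRG1, a gene induced by hypoxia and stress, was at 9.45 in siYT+8Br-cAMP and 10.51 in siYT, against 10.43 in siNC+8Br-cAMP and 8.61 in siNC. GXYLT2, which adds xylose to Notch-type domains, was at 9.86 in siYT+8Br-cAMP and 11.69 in siYT, against 9.21 in siNC+8Br-cAMP and 8.18 in siNC. In each of these the difference was over 1 in size both ways. ANK3, the membrane scaffold ankyrin G, was at 12.29 in siYT+8Br-cAMP and 12.90 in siYT, against 10.30 in siNC+8Br-cAMP and 8.20 in siNC, with both knockdown arrays above both control arrays and the lowest value in siNC. Turned to higher were SEMA7A, a membrane-anchored semaphorin, at 12.27 in siYT+8Br-cAMP and 10.62 in siYT, against 12.43 in siNC+8Br-cAMP and 13.79 in siNC, and ARHGAP29, which switches off the GTPase RhoA, at 9.45 in siYT+8Br-cAMP and 8.09 in siYT, against 10.38 in siNC+8Br-cAMP and 11.49 in siNC. Both were lowest in siYT and highest in siNC. GOT1, the cytosolic aspartate aminotransferase, was at 13.41 in siYT+8Br-cAMP and 11.68 in siYT, against 12.74 in siNC+8Br-cAMP and 13.69 in siNC, and only siYT stood apart. TBC1D2, an activator of Rab GTP hydrolysis, was at 8.07 in siYT+8Br-cAMP and 7.32 in siYT, against 7.80 in siNC+8Br-cAMP and 10.27 in siNC, and only siNC did. Its siYT value lay just over the limit of 7.29.

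**Figure D3:**
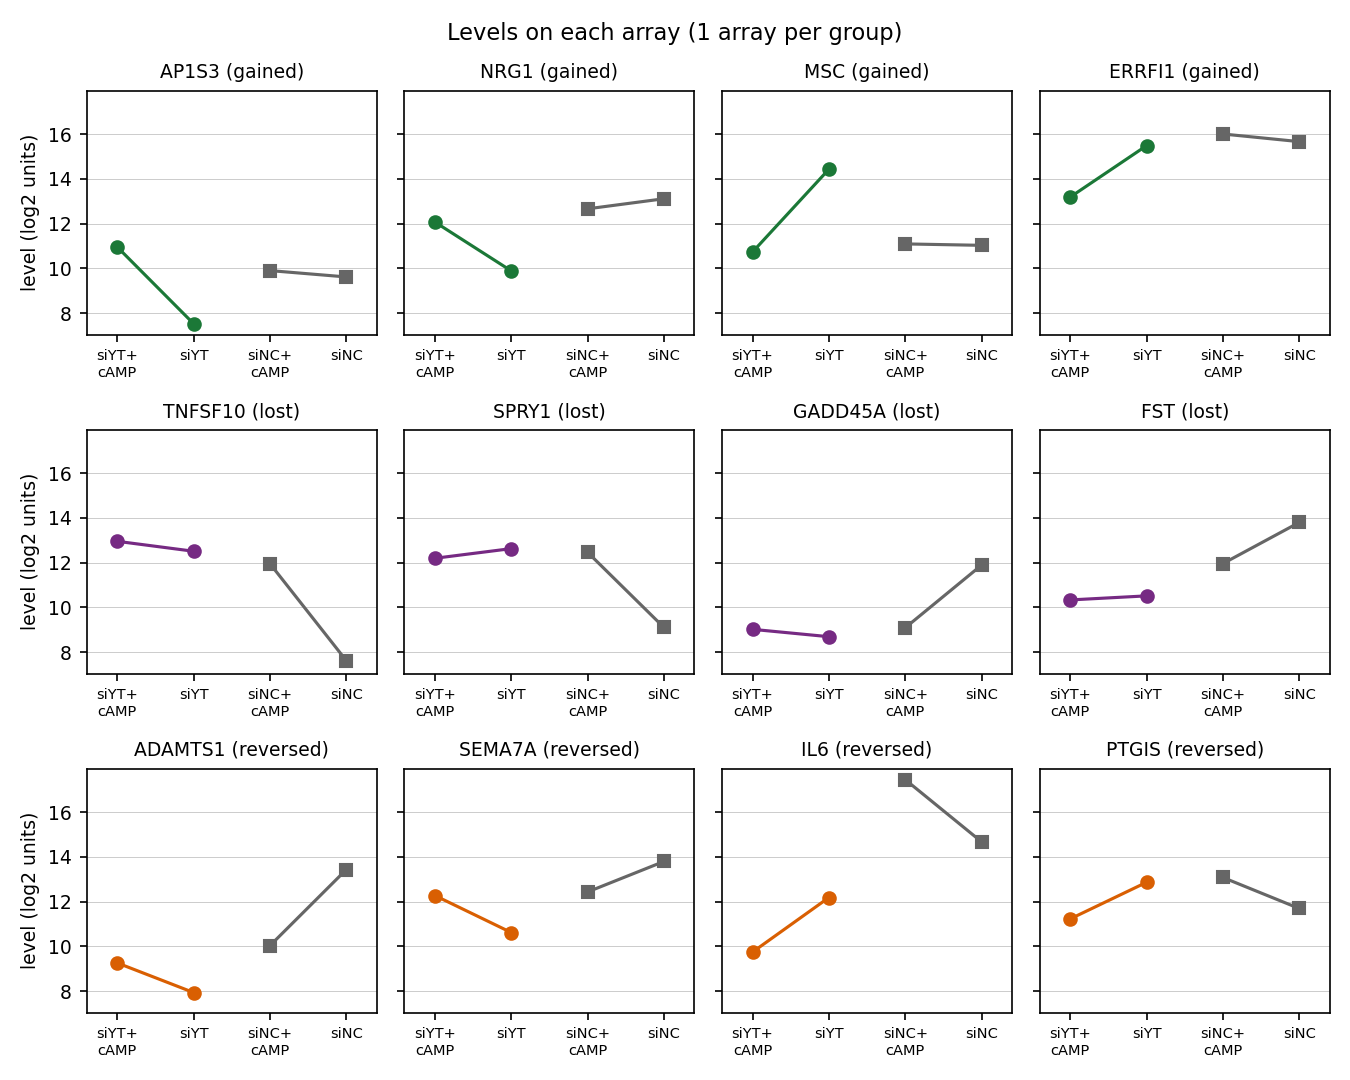
Log2 levels of 12 genes on each array, 4 per class, in the order siYT+8Br-cAMP, siYT, siNC+8Br-cAMP, siNC on the x axis; a line joins the 2 arrays of an siRNA. SPRY1 and TNFSF10 are low in siNC alone, MSC is high in siYT alone, and IL6 and ADAMTS1 slope in opposite directions after the 2 siRNAs.

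Some responses kept their sign but differed in size between the 2 siRNAs. MYO10, the filopodial motor myosin 10, was at 13.05 in siYT+8Br-cAMP and 7.65 in siYT, against 10.67 in siNC+8Br-cAMP and 9.44 in siNC. It was 42.3-fold higher with 8Br-cAMP after siYT and 2.34-fold higher after siNC. SLC27A2, a fatty acid transporter and acyl-CoA synthetase, was at 11.87 in siYT+8Br-cAMP and 7.62 in siYT, against 10.72 in siNC+8Br-cAMP and 8.94 in siNC, in the same direction. The siYT values of MYO10 and SLC27A2 lay close to the limit of 7.29, so their sizes after siYT rest on values near background. ID2, an inhibitor of helix-loop-helix factors, was the lowest of the dampened genes, at 14.25 in siYT+8Br-cAMP and 13.46 in siYT, against 13.54 in siNC+8Br-cAMP and 8.84 in siNC. It was 1.73-fold higher with 8Br-cAMP after siYT and 26.1-fold higher after siNC, and siNC stood apart. ARRDC3, an arrestin-like adaptor, was at 12.80 in siYT+8Br-cAMP and 11.97 in siYT, against 12.88 in siNC+8Br-cAMP and 9.06 in siNC, with the same shape as ID2. FZD4, a Wnt receptor, was at 10.85 in siYT+8Br-cAMP and 9.95 in siYT, against 11.35 in siNC+8Br-cAMP and 8.29 in siNC. Dampened towards lower were PODXL, the sialomucin podocalyxin, with 8Br-cAMP differences of -1.15 after siYT and -3.14 after siNC, and PPP1R15A, which brings a phosphatase to eIF2 alpha, with -0.72 and -2.64.

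Gene groups were read against the shares of all 6604 genes, 4.42% higher and 7.13% lower, and against their median of -0.05. A member counts only when well above background on all arrays. The cAMP and CREB responsive list had 7 such members of 24 measured, and 3 were called higher, 0 lower and 4 were not called, with a median of 0.48. Without a level filter, 7 of the 24 were higher by at least 1 and 4 lower, with a median of 0.35. With a stricter level filter the median was 1.16. SGK1, a kinase induced by hormones, was at 15.38 in siYT+8Br-cAMP and 11.19 in siYT, against 15.23 in siNC+8Br-cAMP and 13.51 in siNC. INHBA, the beta A subunit of activin and inhibin, was at 15.08 in siYT+8Br-cAMP and 11.09 in siYT, against 13.39 in siNC+8Br-cAMP and 11.36 in siNC. DUSP1, a phosphatase that turns off MAP kinases, was at 15 in siYT+8Br-cAMP and 11.27 in siYT, against 14.81 in siNC+8Br-cAMP and 12.92 in siNC. In all 3 the level without 8Br-cAMP was lower in siYT than in siNC, and with 8Br-cAMP it was higher. PDE4D, which degrades cAMP, had nearly the same difference after both siRNAs, 4.02 after siYT and 3.97 after siNC. NR4A1, an orphan nuclear receptor, reached the background limit on the 2 arrays with 8Br-cAMP alone, at 8.67 in siYT+8Br-cAMP and 5.87 in siYT, against 6.81 in siNC+8Br-cAMP and 5.35 in siNC.

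The promoters of DUSP1 and PPP1R15A are shown because both hold a full cAMP response element. By the sign of the 8Br-cAMP difference, DUSP1 was amplified towards higher and PPP1R15A dampened towards lower. Their differences of differences had the same sign, at 1.84 and 1.92. Printed are the 300 bases from 250 before to 50 after the RefSeq start in GRCh38.p14. DUSP1 is on the minus strand at chr5:172771146-172771445 and PPP1R15A on the plus strand at chr19:48872171-48872470. Capitals mark TGACG and its reverse complement, and the full element is their overlap TGACGTCA.
DUSP1: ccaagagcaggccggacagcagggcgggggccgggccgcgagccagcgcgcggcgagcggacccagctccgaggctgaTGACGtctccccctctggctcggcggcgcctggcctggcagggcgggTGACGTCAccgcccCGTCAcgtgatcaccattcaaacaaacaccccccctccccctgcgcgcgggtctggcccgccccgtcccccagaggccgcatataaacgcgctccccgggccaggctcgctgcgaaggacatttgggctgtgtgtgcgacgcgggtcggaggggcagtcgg
PPP1R15A: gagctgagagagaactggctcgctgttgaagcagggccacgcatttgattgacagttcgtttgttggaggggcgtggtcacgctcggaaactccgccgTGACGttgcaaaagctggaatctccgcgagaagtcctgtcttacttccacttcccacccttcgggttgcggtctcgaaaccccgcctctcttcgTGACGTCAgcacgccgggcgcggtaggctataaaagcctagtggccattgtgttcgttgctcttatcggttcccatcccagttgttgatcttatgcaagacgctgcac
The half-site TGACG, searched on both strands, was in 25.0% of 27305 RefSeq promoters of that length and the full TGACGTCA in 1.98%. Every full element also counts as a half-site.

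The steroid synthesis list had 9 of 21 measured members well above background, with 1 called higher, 5 lower and 3 not called, and a median of -1.10. That median depends on which members are kept: it was -0.61 with a stricter level filter, -0.59 with a looser one and -0.09 over all 21 measured genes. STAR, which brings cholesterol to the inner mitochondrial membrane, was at 15.90 in siYT+8Br-cAMP and 10.38 in siYT, against 14.01 in siNC+8Br-cAMP and 9.84 in siNC, and its 8Br-cAMP difference was larger after knockdown, 5.51 against 4.16. The lower calls were led by 3 aldo-keto reductases that convert steroids. AKR1C3 was at 12.34 in siYT+8Br-cAMP and 12.40 in siYT, against 13.14 in siNC+8Br-cAMP and 11.15 in siNC. AKR1C2 was at 8.43 in siYT+8Br-cAMP and 7.98 in siYT, against 9.31 in siNC+8Br-cAMP and 7.13 in siNC, and AKR1C1 at 10.49 in siYT+8Br-cAMP and 9.84 in siYT, against 11.74 in siNC+8Br-cAMP and 9.51 in siNC. The 8Br-cAMP differences were -0.06, 0.46 and 0.65 after siYT, against 1.98, 2.17 and 2.23 after siNC, in that order. These paralogues are close in sequence, so a probe set of one may read the others, and they are not 3 separate observations. The AKR1C2 value in siNC lay close to the limit of 6.94.

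Several core steroid enzymes were below the background limit in siNC. CYP19A1, the aromatase, was at 17.56 in siYT+8Br-cAMP and 14.26 in siYT, against 14.26 in siNC+8Br-cAMP and 5.04 in siNC. The siNC value lay below the background limit of 6.94, so the level with 8Br-cAMP was 9.80-fold higher after siYT and at least 159.5-fold higher in control cells. The difference of differences was -5.93 as deposited and -4.03 with the siNC value set to the limit. Knockdown alone and 8Br-cAMP alone had the same level, 14.26. CYP11A1, which starts steroid synthesis from cholesterol, was at 12.84 in siYT+8Br-cAMP and 8.82 in siYT, against 8.94 in siNC+8Br-cAMP and 4.25 in siNC. Its difference of differences was -0.66 as deposited and 2.04 with siNC at the limit, so no direction can be given. HSD3B2, which makes progesterone, was at 10.12 in siYT+8Br-cAMP and 5.80 in siYT, against 8.99 in siNC+8Br-cAMP and 4.17 in siNC. Its difference of differences was -0.50 as deposited and 0.79 with siYT and siNC at the limit.

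Interferon response genes had the largest number of calls in 1 direction of the 25 lists, 13 of 27, while the shares were larger in the smaller steroid and stromal lists. Of 38 measured, 27 were well above background, and 13 of these were called lower, 0 higher and 14 were not called. The median was -0.99, and 25 of the 27 lay below 0. With 8Br-cAMP, 17 of the 27 were lower by at least 1 after siYT (6.86% of all genes) and 0 after siNC (5.45%), and the median difference was -1.14 after siYT and -0.14 after siNC. Under the 4 other scalings (centring on the gene median or on the positive controls, cyclic loess, and 32 added on the linear scale) between 12 and 16 members were called lower and 0 higher. Of the 13 called, 8 were gained, 2 reversed, 1 amplified and 2 in no class. XAF1, a promoter of apoptosis, was at 8.48 in siYT+8Br-cAMP and 10.66 in siYT, against 9.57 in siNC+8Br-cAMP and 9.49 in siNC. OAS1, which senses double-stranded RNA, was at 9.55 in siYT+8Br-cAMP and 11.15 in siYT, against 11.52 in siNC+8Br-cAMP and 11.11 in siNC. IFI44L, an interferon-induced protein, was at 12.81 in siYT+8Br-cAMP and 14.09 in siYT, against 13.51 in siNC+8Br-cAMP and 12.64 in siNC. The doubly treated array stood apart in 5 members. The median siRNA difference of the list was -0.78 with 8Br-cAMP and 0.12 without. The exceptions included IFI27, an interferon-induced mitochondrial protein, at 0.21, and IFI35 at 0.22. These 2 were chosen after their values were seen, as the members above 0.

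**Figure D4:**
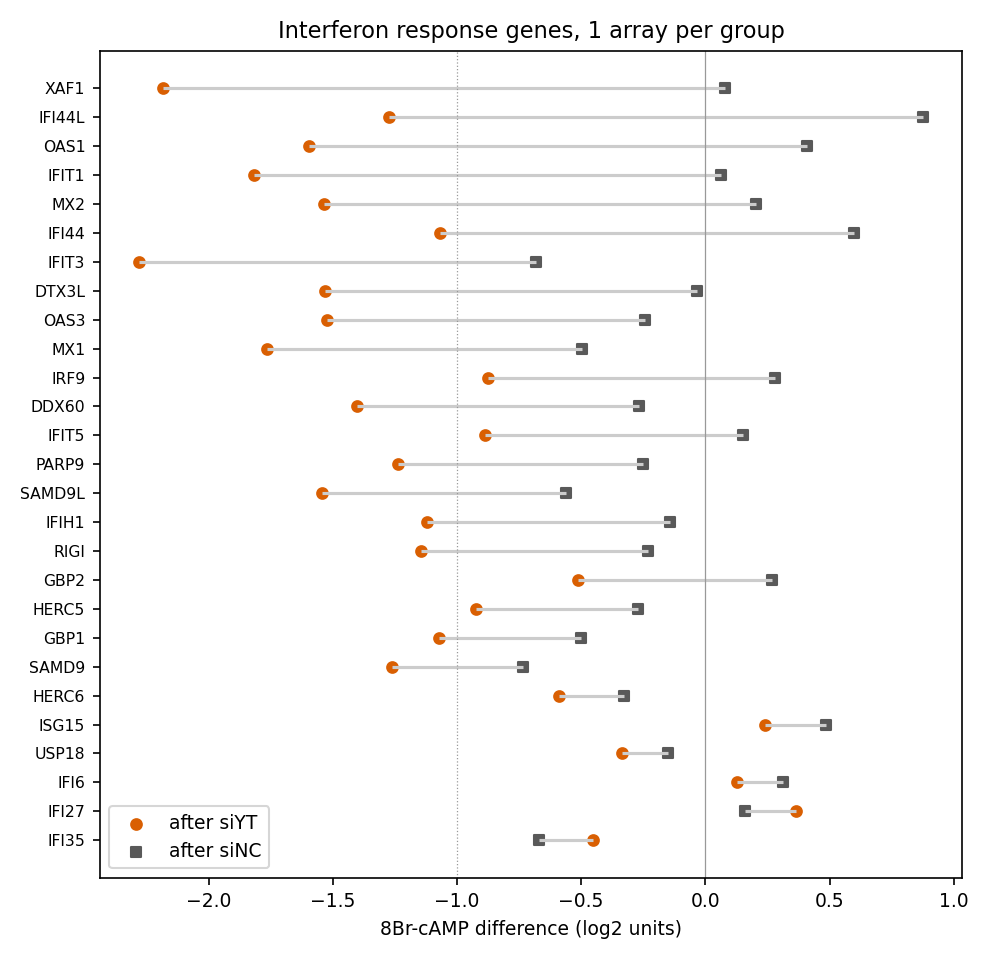
8Br-cAMP differences in log2 units of the 27 interferon response genes above background on all arrays, after siYT (circles) and after siNC (squares), ordered by the difference of differences. After siYT 17 circles lie at or under -1, and no square does.

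The promoter of IFI44L is shown because its class is reversed and it carries the element of interferon-stimulated genes 2 times. The 2 copies lie in a stretch of bases that is itself repeated, so they are not separate occurrences. Capitals mark GAAA, any 2 bases and GAAA again, searched on both strands, in the plus-strand window chr1:78620198-78620497 of GRCh38.p14 from RefSeq.
IFI44L: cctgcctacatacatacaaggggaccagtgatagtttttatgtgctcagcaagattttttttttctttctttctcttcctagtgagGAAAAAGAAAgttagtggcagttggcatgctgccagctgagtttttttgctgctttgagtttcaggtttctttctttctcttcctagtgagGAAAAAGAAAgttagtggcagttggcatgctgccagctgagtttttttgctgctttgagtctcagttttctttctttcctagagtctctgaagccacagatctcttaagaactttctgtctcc
These letters were in 3.65% of all RefSeq promoters, in 16 of 24 promoters found for the 27 list members and in 9 of 12 found for the 13 called lower. The windows of XAF1 and OAS1 held 0 copies. The list was chosen for its interferon response, so the motif is no independent observation.

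Inflammatory cytokines and NF-kB targets held 17 of 25 measured members above background, with 2 called higher, 6 lower and 9 not called, and a median of -0.47. After siYT 10 of them were lower by at least 1 with 8Br-cAMP (6.86% of all genes), and after siNC 4 were (5.45%). CXCL8, interleukin 8, was at 9.72 in siYT+8Br-cAMP and 13.04 in siYT, against 14.48 in siNC+8Br-cAMP and 15.34 in siNC. CXCL1, a neutrophil chemokine, was at 7.68 in siYT+8Br-cAMP and 10.87 in siYT, against 10.66 in siNC+8Br-cAMP and 11.42 in siNC. For both, as for IL6, the doubly treated cells had the lowest level. The IL6 promoter, on the plus strand at chr7:22726950-22727249, is shown as that of the most extreme gene, with TGACG, its reverse complement and the NF-kB letters in capitals, which are GGGA, any base and TTTCC.
IL6: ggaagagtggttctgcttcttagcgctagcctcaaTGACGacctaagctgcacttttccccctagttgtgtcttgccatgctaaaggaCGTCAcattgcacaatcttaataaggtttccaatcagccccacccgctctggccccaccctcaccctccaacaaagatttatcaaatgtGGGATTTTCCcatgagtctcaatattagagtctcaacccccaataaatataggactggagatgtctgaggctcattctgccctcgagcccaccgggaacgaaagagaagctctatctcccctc
The NF-kB letters were in 0.579% of all RefSeq promoters on either strand. A match in a promoter describes its letters and not the binding of a factor.

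The TGF-beta, activin and BMP list had 16 of 27 measured members above background, of which 2 were called higher, 5 lower and 9 were not called, with a median of -0.73. In control cells 9 of the 16 were higher by at least 1 with 8Br-cAMP (7.27% of all genes), and after siYT 4 were (6.07%). ID2 and SMAD6, both described above, are textbook targets of BMP signalling and led the lower calls. Activin and its antagonist were both called higher, INHBA at 1.96 as an amplified and FST at 1.66 as a lost response.

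Feedback genes of growth factor signalling were called in both directions. In the EGF and ERK list, 16 of 27 were above background, with 3 called higher, 3 lower and 10 not called. SPRY1 and ERRFI1 were the lowest and NRG1 the highest. DUSP5, a phosphatase of nuclear ERK, was at 8.34 in siYT+8Br-cAMP and 9.26 in siYT, against 9.14 in siNC+8Br-cAMP and 11.82 in siNC and belonged to the dampened genes, with siNC apart. The 4 other scalings also gave 3 higher and 3 lower.

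Called lower in the glycolysis and hypoxia list were 2 glucose transporters, the growth factor VEGFA, NDRG1 and the histone demethylase KDM3A. The other members above background, GAPDH and LDHA among them, were not called. VEGFA, KDM3A, GAPDH and LDHA were picked for naming after their values were seen. Of 23 measured members of that list 16 were above background, with 5 lower, 0 higher and 11 not called and a median of -0.35. SLC2A1, the glucose transporter GLUT1, was at 8.21 in siYT+8Br-cAMP and 10.47 in siYT, against 11.29 in siNC+8Br-cAMP and 11.22 in siNC. SLC2A3, GLUT3, was at 12.94 in siYT+8Br-cAMP and 13.79 in siYT, against 14.86 in siNC+8Br-cAMP and 13.51 in siNC. SLC2A1 was low in the doubly treated cells alone and SLC2A3 high in siNC+8Br-cAMP alone, so the same direction came from different arrays.

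Among CDK inhibitors and p53 targets, 14 of 21 were above background, with 2 higher, 5 lower and 7 not called and a median of -0.68. Centred on the gene median 3 were called lower. SESN1, a stress-induced regulator of mTORC1, was reversed, at 7.55 in siYT+8Br-cAMP and 8.69 in siYT, against 8.57 in siNC+8Br-cAMP and 7.31 in siNC. ZMAT3, a p53-induced RNA-binding protein, was at 7.99 in siYT+8Br-cAMP and 8.24 in siYT, against 8.73 in siNC+8Br-cAMP and 7.37 in siNC. Both were lowest in siNC, and SESN1 was highest in siYT and ZMAT3 in siNC+8Br-cAMP. Their siNC values lay close to the limit of 6.94. In the ATF4 and amino acid list, 21 of 27 were above background, with 2 higher, 7 lower and 12 not called and a median of -0.74. ASNS, the asparagine synthetase, was at 8.63 in siYT+8Br-cAMP and 12.16 in siYT, against 12.67 in siNC+8Br-cAMP and 14.002 in siNC. CEBPB, a stress-induced bZIP factor, was at 8.55 in siYT+8Br-cAMP and 9.02 in siYT, against 9.20 in siNC+8Br-cAMP and 8.18 in siNC. SLC7A5, a transporter of large neutral amino acids, was at 12.27 in siYT+8Br-cAMP and 11.98 in siYT, against 11.96 in siNC+8Br-cAMP and 13.09 in siNC, with siNC the highest.

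Classical YAP/TAZ targets had no common direction. Of 21 measured, 16 were above background, with 2 higher, 3 lower and 11 not called and a median of -0.27. CCN1 and CCN2, secreted matrix proteins, were not called, at -0.85 and -0.33. Both were lower with 8Br-cAMP after each siRNA. The 8Br-cAMP differences were -2.04 after siYT and -1.19 after siNC for CCN1, and -1.54 and -1.21 for CCN2. CCN2 was at 8.88 in siYT+8Br-cAMP and 10.42 in siYT, against 14.47 in siNC+8Br-cAMP and 15.67 in siNC. F3, the tissue factor that starts coagulation, was reversed, at 10.98 in siYT+8Br-cAMP and 9.99 in siYT, against 13.09 in siNC+8Br-cAMP and 13.79 in siNC. IGFBP3, a binding protein of insulin-like growth factors, was reversed the other way, at 12.91 in siYT+8Br-cAMP and 14.12 in siYT, against 15.78 in siNC+8Br-cAMP and 15.16 in siNC. ANKRD1, a nuclear stress protein, was below the background limit in the doubly treated cells, at 3.81 in siYT+8Br-cAMP and 8.28 in siYT, against 13.08 in siNC+8Br-cAMP and 14.42 in siNC. Its difference of differences was -3.12 as deposited and 0.04 with that value at the limit, so it has no usable direction. Among Hippo components and TEAD factors 16 of 23 were above background, with 1 higher, 2 lower and 13 not called and a median of 0.06. FAT4, an atypical cadherin upstream of Hippo signalling, was lowest at -2.03, and SAV1, the scaffold of the Hippo kinases, and WWC2, a regulator of LATS kinases, had -1.03 and 1.03. Between 0 and 3 of these members were called higher, and 1 or 2 lower, under the 4 other scalings. The FAT4 value in siYT+8Br-cAMP, 7.19, lay close to the limit of 6.98.

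Extracellular matrix genes had 22 of 30 members above background, with 0 higher, 5 lower and 17 not called and a median of -0.32. TNC, the adhesion-modulating glycoprotein tenascin C, was at 10.50 in siYT+8Br-cAMP and 13.55 in siYT, against 8.69 in siNC+8Br-cAMP and 10.27 in siNC. COL6A1, a chain of collagen VI, and HMCN1, a basement membrane protein, had -1.20 and -1.16. Of 9 measured markers of theca and stromal cells 4 were above background, and 3 of these were called lower, PDGFRA, PDGFRB and COL1A1. On a log2 scale the summed level of the 9 markers was 12.80 in siYT+8Br-cAMP and 14.02 in siYT, against 13.23 in siNC+8Br-cAMP and 13.63 in siNC. The defining theca markers CYP17A1 and INSL3 were below the background limit on all 4 arrays. The part of these markers in the matrix values was not tested, and COL1A1 belongs to both lists. All 4 arrays are of the KGN line, so these values are levels in its bulk RNA and not counts of theca or stromal cells.

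**Figure D5:**
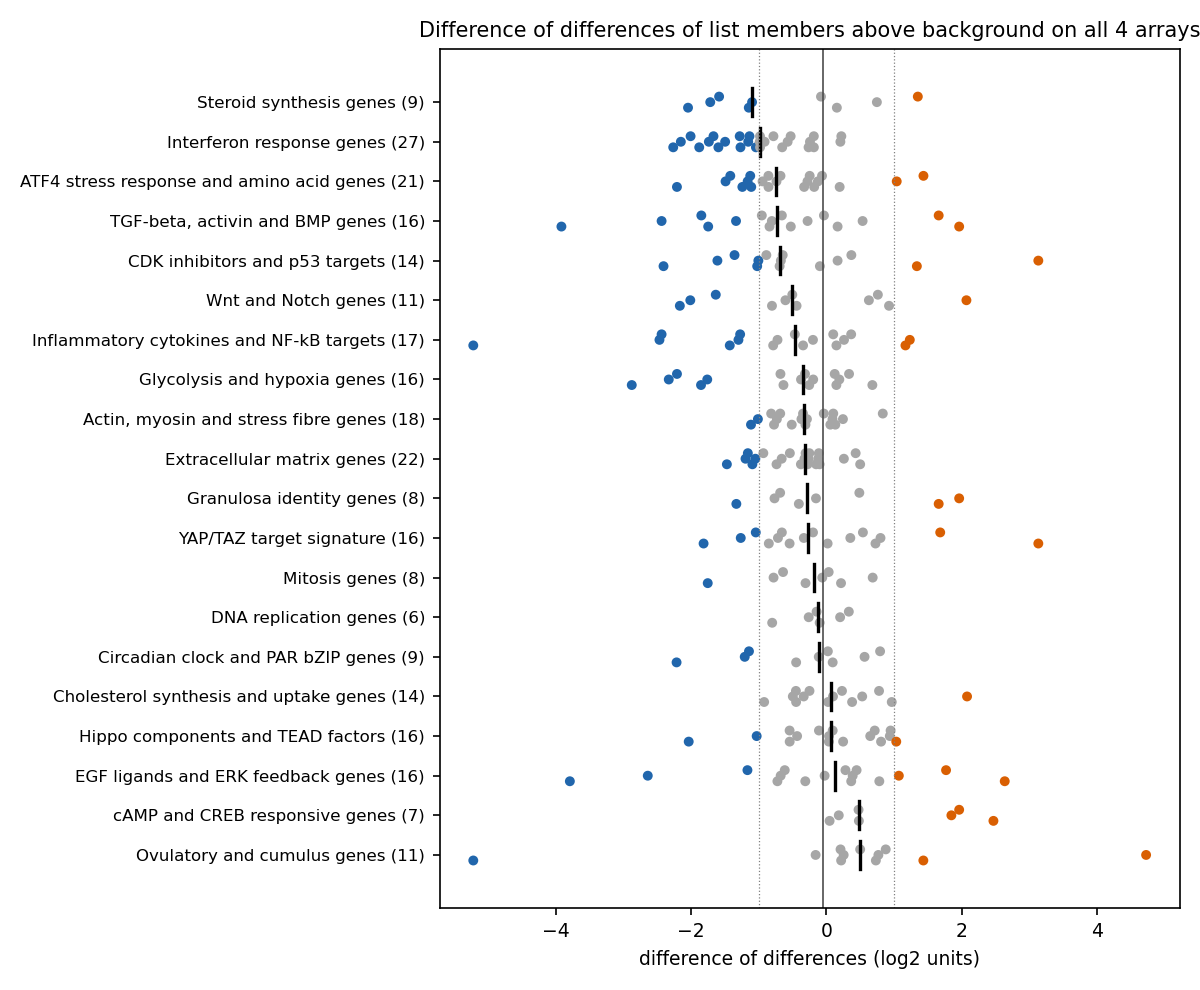
Each point is the difference of differences, in log2 units, of a list member well above background on all 4 arrays, and the number of such members follows the list name. Black bars are list medians, the vertical line is the median of all 6604 genes, and points at or beyond the dotted lines at -1 and 1 are coloured. The interferon list has 13 points under -1 and 0 over 1.

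The remaining lists were small or had few members above background. Ovulatory and cumulus genes had 11 of 23 members above background, with 2 higher, 1 lower and 8 not called. Their median was 0.50, and the list holds both IL6 and ADAMTS1. PLAT, the tissue plasminogen activator, was at 6.997 in siYT+8Br-cAMP and 8.45 in siYT, against 7.86 in siNC+8Br-cAMP and 10.74 in siNC. Its siYT+8Br-cAMP value lay just over the limit of 6.98. Of 8 granulosa genes above background 2 were higher, 1 lower and 5 not called, and GJA1, the gap junction protein connexin 43, had -1.33 through a smaller difference after siYT, 1.17 against 2.50. Of 14 cholesterol genes 1 was called, HMGCS1, an early enzyme of cholesterol synthesis, at 8.53 in siYT+8Br-cAMP and 7.68 in siYT, against 7.51 in siNC+8Br-cAMP and 8.73 in siNC. Of 11 Wnt and Notch genes 1 was higher and 3 lower, with WNT5B, a Wnt ligand, at 2.07 and FZD1, a receptor, at -2.01. Clock genes had 3 lower of 9, led by NFIL3, a repressor of the clock output, at 7.63 in siYT+8Br-cAMP and 8.97 in siYT, against 9.45 in siNC+8Br-cAMP and 8.58 in siNC. Among the 18 actin and myosin genes, TAGLN2 and ACTG1 were called lower, at -1.11 and -1.01. ACTG1 and its close actin paralogues may share probes.

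Cell division genes had few calls. Only 8 of 26 measured mitosis genes and 6 of 24 replication genes were above background on all arrays, and 18 mitosis and 15 replication genes were so on 1 to 3 arrays. The medians were -0.19 and -0.12, and ANLN, the cytokinesis protein anillin, was the 1 call, at 9.28 in siYT+8Br-cAMP and 11.95 in siYT, against 14.62 in siNC+8Br-cAMP and 15.53 in siNC. These counts do not speak for the whole lists.

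Some of the largest differences of differences lay among 2164 genes above background on 1 to 3 arrays, where the size rests on the background. TRIB2, a pseudokinase, was at 8.03 in siYT+8Br-cAMP and 9.86 in siYT, against 9.21 in siNC+8Br-cAMP and 6.21 in siNC, and its difference of differences was -4.10 with siNC at the limit. EDN2, the vasoconstrictor endothelin 2, was above background in siNC+8Br-cAMP alone, at 3.28 in siYT+8Br-cAMP and 3.16 in siYT, against 8.15 in siNC+8Br-cAMP and 3.84 in siNC. Its level there was at least 2.30-fold above siNC and at least 2.25-fold above siYT+8Br-cAMP. RAP1GAP, which switches off the GTPase RAP1, was above background in siYT+8Br-cAMP alone, at 9.27 in siYT+8Br-cAMP and 4.12 in siYT, against 5.52 in siNC+8Br-cAMP and 4.29 in siNC. It was there at least 3.94-fold above siYT and at least 6.67-fold above siNC+8Br-cAMP. ACTBL2, an actin-like protein with close paralogues, was at 10.90 in siYT+8Br-cAMP and 4.49 in siYT, against 7.29 in siNC+8Br-cAMP and 4.72 in siNC. GREB1, an estrogen-induced gene, was at 7.497 in siYT+8Br-cAMP and 3.52 in siYT, against 3.21 in siNC+8Br-cAMP and 3.09 in siNC. It exceeded the limit in the doubly treated cells alone. SLC14A1, a urea transporter, exceeded it in siYT alone, at 4.49 in siYT+8Br-cAMP and 8.98 in siYT, against 2.81 in siNC+8Br-cAMP and 2.62 in siNC. As deposited, the differences of differences were -4.19 for EDN2, 3.91 for RAP1GAP, 3.84 for ACTBL2, 3.86 for GREB1 and -4.68 for SLC14A1. With background values at the limit they were -1.52, 2.39, 3.26, 0.62 and -1.60, in that order. GREB1 then fell short of a size of 1.

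Over the classes, promoter letters were counted as well. RefSeq promoters were found for 5588 of the 6604 genes, 122 gained, 124 lost and 111 reversed. The half-site TGACG was in 27.0% of gained, 37.9% of lost and 26.1% of reversed genes, against 36.5% of the expressed genes. The full TGACGTCA was in 3.28%, 3.23% and 5.41%, which are 4, 4 and 6 genes, against 3.42%. The TEAD letters GGAATG were in 13.1%, 11.3% and 13.5%, against 10.2% of the expressed genes and 3836 of all 27305 promoters, and the interferon element in 7.38%, 4.03% and 2.70%, against 3.06%. These shares are descriptions of the 300-base windows, without a test.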

How the data were processed

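RNA of KGN cells was hybridised to Clariom S Human arrays, 1 for each of 4 groups. The deposited log2 values come from RMA, and the submitters' processing notes also name the Affymetrix Expression Console. For neither tool is a version given in the sources used here. The values reach 19.4, above the 16 of a 16-bit scanner on that scale, so a rescaling is possible, and folds are powers of 2 of deposited log2 differences. Of 24351 probe sets 17709 named 1 gene, by the platform's annotation, and all their gene IDs matched RefSeq. For 20 genes more than 1 probe set was averaged. Array medians ran from 6.20 to 6.27, and the number of arrays limits the precision. No model was fitted, since 4 arrays leave nothing to estimate the error of an interaction. The code that assigns the classes was checked on simulated data, which says nothing of the error of the arrays. Python 3.11.15, pandas 2.3.3 and, for cyclic loess, limma 3.58.1 were used.

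The 3 classes, their thresholds, 10 alternative settings and 25 gene lists were chosen with earlier results of these data known. Named genes are the 2 targets, the 5 largest per direction in each class and 3 in the amplified and dampened ones, up to 3 called members of each list, 14 genes of interest (CREM, one of them, was not analysed here), the 3 highest and 3 lowest among genes near background on some arrays, and those nearest the threshold. The sorting by the array that stood apart was chosen after seeing the data.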

Additional observations from a re-analysis of the deposited data

Results flagged for a closer look

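The 8Br-cAMP difference was at least 1 in size in both directions, positive after one siRNA and negative after the other, in 9 of 6604 genes, 3 of them higher after siYT and 6 lower. With 1 array per group this opposition was not tested. The named genes among them had differences of differences of -5.21 for IL6, -3.02 for PTGIS, -2.87 for NDRG1, -2.86 for GXYLT2, -2.41 for SESN1, 2.47 for ARHGAP29, 3.01 for SEMA7A and 4.72 for ADAMTS1.

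Outside the named genes, 74 of 870 transcript clusters above background on all arrays, for which no gene was named here, had a difference of differences of at least 1 in size, 38 higher and 36 lower.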

How the results depend on the processing

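No paired analysis was possible because each group had 1 array, and for the same reason no replicate could be left out. Main counts were 292 genes higher, 471 lower, 155 gained, 155 lost and 131 reversed. Without a level filter they were 1409, 1347, 484, 595 and 644, most of the added genes being near background. With a size threshold of 1.5 they were 67, 141, 35, 28 and 83. Lost responses numbered 98 with values at least 1 over the background limit, and also 98 when no response meant under 0.25. The other 38 of 50 recomputed counts stayed within 1.5 times the main ones. Centring on the gene median kept 663 of the 763 called genes and moved the share of higher calls to 50.6% from 38.3%, and 389 of the 441 members kept their class. Under cyclic loess 398 kept it, and under centring on the positive controls 417. Of the list medians 226 stayed within 0.671, the SD over all genes, and 4 moved further. Without a level filter these were -0.09 for steroid synthesis genes, -0.31 for theca and stromal markers and 0.10 for immune markers, and with the stricter filter 1.16 for cAMP and CREB responsive genes. Of the recomputed values of named genes 982 stayed within that SD and 8 moved further, all with 32 added on the linear scale and near background on at least 1 array. Among them, CYP11A1 then had 0.58 and HSD3B2 0.28. Among named genes and list medians, no value of at least 1 in size changed sign under these settings. The signs of the other called genes were not compared.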
